A study of Mus musculus with 3 samples.

Results

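The klotho co-receptor genes Kl and Klb and the FGF receptor genes Fgfr1, Fgfr2, Fgfr3 and Fgfr4 were examined in the choroid plexus epithelium (CPE) of the mouse. The genes were chosen by name, and every non-control probe that the scanner files assign to one of these genes was taken, which gave 17 of 41174 probes, for 6 of the 28320 gene names on the array. CPE cells were laser dissected from 20 µm cryosections of the lateral ventricles of 3 healthy C57BL/6 mice aged 18 to 21 weeks, and their amplified RNA was labelled with the red dye Cy5. On each of the 3 arrays it was hybridised together with the same reference RNA, from mouse retinal pigment epithelium (RPE) and choroid, labelled with the green dye Cy3. No mouse was treated or carried an altered gene according to the labels. The dyes were not swapped, so a dye bias of a probe remains in its ratio, and the reference is 1 RNA, so that its own biological spread is not included. The p-values therefore rest on the spread of the ratio over these 3 arrays, 1 per mouse. That spread holds differences between mice and technical spread of both channels. For each probe, limma draws it toward the spread common to the tested probes. Where a probe varied unusually much, its SE and p are thus smaller than its own 3 values alone would give.

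Klotho is a single-pass membrane protein that forms a receptor complex with FGF receptors for the hormone Fgf23, and its shed or secreted ectodomain circulates in blood and cerebrospinal fluid. Beta-klotho, the product of Klb, has the same role for Fgf21 and Fgf15. FGF receptors are receptor tyrosine kinases that are activated by locally acting FGF ligands bound to heparan sulfate, and that signal through Frs2, Ras and the MAP kinases. The choroid plexus is, beside kidney and parathyroid, a known site of klotho expression.

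Of the 6 genes, Kl stood apart. Its probe in the 3′ part of the gene had the highest ratio of CPE over reference of all 25841 probes tested, 42.8-fold, after loess normalization. Fgfr1 was 3.08-fold higher in CPE than in the reference. The 3′ probe of Fgfr2 ranked above the 90th percentile of all probes in CPE, and its ratio did not pass the test for a difference. Fgfr3 leaned lower in CPE without reaching the 2-fold minimum, and Fgfr4 and Klb lay at or near background.

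The promoters of both co-receptor genes are shown because Kl and Klb lie at opposite ends of these levels. They are the 250 bases upstream of the start in RefSeq (GRCm38.p6), at chr5:150952357-150952606 for Kl and at chr5:65348161-65348410 for Klb, both on the plus strand. Capitals mark GGGCGG, the core letters of a GC box, or its reverse complement CCGCCC.
Kl: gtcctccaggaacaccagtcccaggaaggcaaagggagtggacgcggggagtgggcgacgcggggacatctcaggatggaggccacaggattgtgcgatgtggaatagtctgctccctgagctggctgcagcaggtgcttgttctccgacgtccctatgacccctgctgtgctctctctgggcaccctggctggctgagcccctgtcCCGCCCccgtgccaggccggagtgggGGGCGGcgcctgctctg
Klb: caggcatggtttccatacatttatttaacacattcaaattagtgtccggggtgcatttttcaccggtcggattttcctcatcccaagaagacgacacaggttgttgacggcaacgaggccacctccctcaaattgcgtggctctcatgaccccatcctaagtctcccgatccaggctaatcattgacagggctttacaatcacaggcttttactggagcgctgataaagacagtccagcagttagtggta
The Kl promoter held 2 matches to GGGCGG over both strands and a GC content of 66.8%. The Klb promoter held no match and a GC content of 48%. Among 32851 promoters of this length, 32.7% held GGGCGG and the median GC content was 52.4%. On neither strand did either promoter hold the TATA box letters TATAAA, found in 12.4% of the promoters. The same held for CCAAT, the CCAAT box, found in 33.9%, and for TAATCC, the core of OTX sites, found in 6.25%. These matches describe letters only. A promoter entry was at hand for 5 of the 6 genes. That of Fgfr2, whose 3′ probe alone ranked high in CPE, held 0 matches to GGGCGG and a GC content of 44%. That of Fgfr4, at the limit of detection, held 2 matches and 64%. The entries of Fgfr3 held 3 and 2 matches, with 66.8% and 72.8%. A link between these letters and the levels was not tested.

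The dissected tissue was checked against marker genes. All 11 CPE markers on the array ranked between the 97.5th and the 99.99th percentile in CPE, and 10 of them were higher than in the reference. Of the RPE and melanocyte markers 9 of 11 were lower in CPE, as were 7 of 8 photoreceptor markers, although all but 1 of the RPE and melanocyte markers (Tyr) were well above background on the 3 CPE arrays. Of the endothelial markers 2 of 8 were higher in CPE and none lower, and of the stromal markers 5 of 6 were lower. All 6 stromal markers were nonetheless well above background on the 3 CPE arrays and ranked from 84.4 to 98.3 in CPE. The reference includes choroid, so their lower ratios are no measure of how much stroma the CPE samples held. The part of such other cells in the results below was not tested. Array 3 differed from the others in background: its negative control spots had a median CPE intensity of 357, against 77.5 and 78.1 on arrays 1 and 2, and 85.6% of its probes passed the scanner's call of well above background, against 58.5% and 46.0%. Log2 ratios correlated between arrays with Pearson's r of 0.806 to 0.890 over the probes tested, which are not independent replicates.

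**Figure D1:**
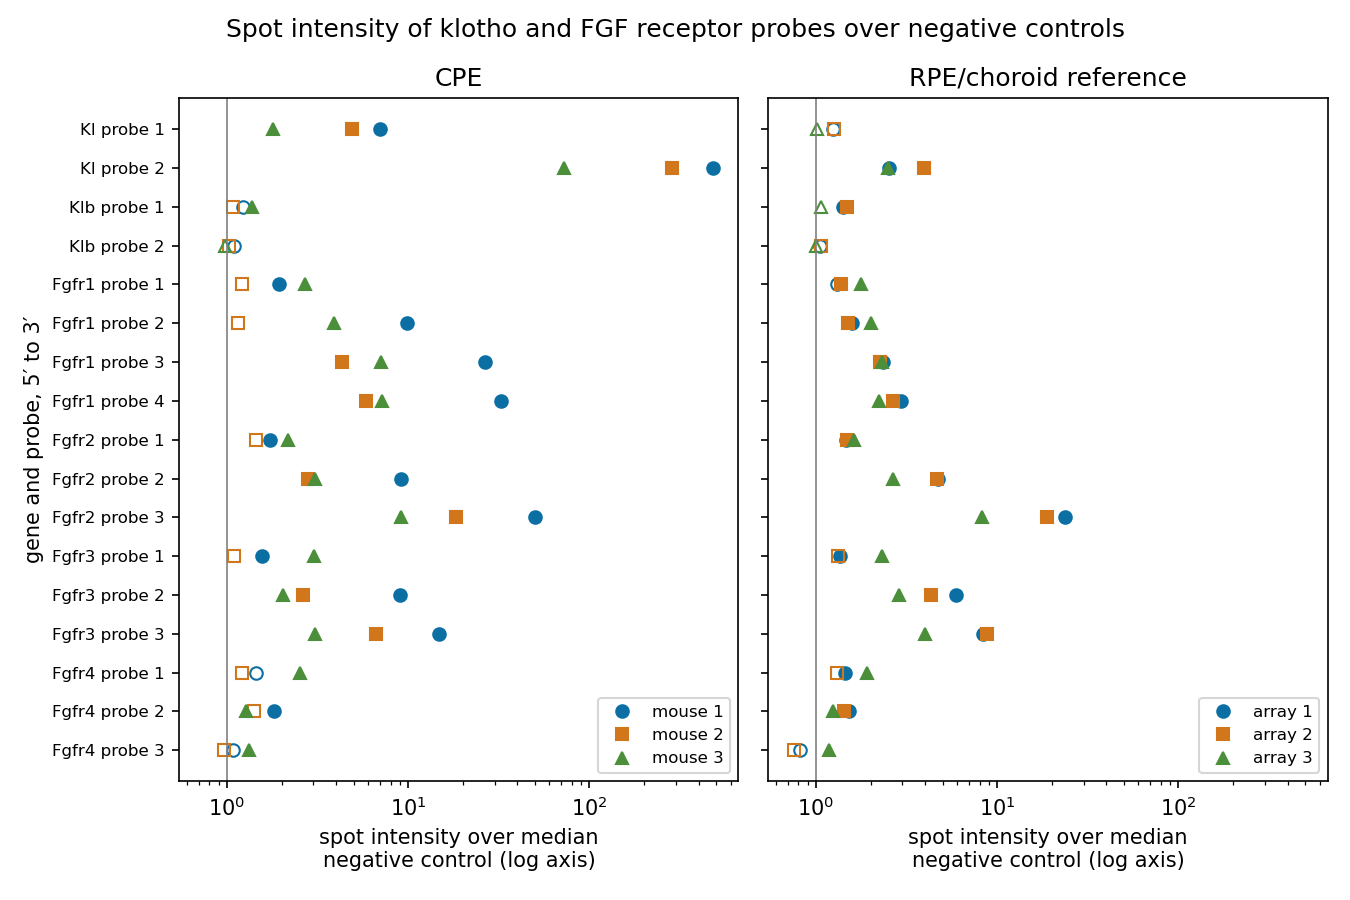
Spot intensity of the 17 probes divided by the median negative control of the same array and channel, on a log axis, for the CPE of 3 mice (left) and the reference on the 3 arrays (right), with filled symbols where the spot was well above background. Kl probe 2 reached 481, 284 and 72.4 times the negative controls in CPE and 2.51 to 3.94 times in the reference, and the Klb probes did not exceed 1.49 in either channel.

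Detection differed among the genes. Both Kl probes, 2 of 4 Fgfr1 probes, 2 of 3 Fgfr2 probes and 2 of 3 Fgfr3 probes were well above background in CPE on all 3 arrays. No probe of Klb or Fgfr4 was. Testing required at least 1 channel in which every array called the probe well above background, which held for 11 of the 17 probes. At an adjusted p below 0.05 and at least a 2-fold difference, 4 of the 17 probes were called higher in CPE, Kl probes 1 and 2 and Fgfr1 probes 3 and 4, and 0 lower. Over all probes tested, 7.09% were higher and 10.2% lower, 17.3% in either direction. With median centring of the arrays in place of loess, 14.5% of all probes were higher and 7.13% lower, and the members again had 4 higher and 0 lower. Kl probe 1 passed the filter through the CPE channel alone, where it was high, so its call adds no support. Where both channels had to be well above background on all arrays, 7 member probes remained, and the 3 called higher were Kl probe 2 and Fgfr1 probes 3 and 4, beside 9% of all such probes higher and 11.3% lower. Fgfr1 probe 2, Fgfr2 probe 1 and Fgfr4 probe 2 passed through the reference channel alone. Probes are numbered 5′ to 3′ within a gene.

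Klotho was measured by probes against 2 different transcripts. Probe 2, annotated to the klotho mRNA that encodes the membrane form, lies at chr5:151261516-151261575 (mm8, plus strand). Its CPE spot intensity was 37252 in mouse 1, 22132 in mouse 2 and 25826 in mouse 3. The reference spots on the same arrays gave 273, 413 and 575. CPE was far brighter in every mouse with no overlap between channels, and neither channel was saturated. After normalization the log2 ratio was 6.11, 5.20 and 4.95, with a mean of 5.42 (SE 0.23, n = 3, limma adjusted p = 8.99e-06). Mouse 1 was the highest, and the SD of the ratio, 0.61, was larger than that of 92.0% of the tested probes. The log2 level of this probe had an SD of 0.67 in the reference channel and 0.21 in CPE. The reference was the same RNA on each array, so the spread of the ratio is not that of the mice alone. The ratio of this probe held its call under each alternative normalization, filter, test and omission of a mouse, at 5.08 to 6.15. Taken as the mean over both Kl probes, the log2 ratio was lower, at 3.65. Probe 1 was tested only through the CPE channel, where it was high, so a call on this mean adds no support.

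Kl probe 1 is annotated to the mRNA of a secreted klotho isoform and lies 6226 bases upstream of probe 2, at chr5:151255290-151255349. Its CPE intensity was 540, 381 and 639 in the 3 mice, and the reference gave 134, 132 and 231. It was well above background in CPE on all 3 arrays and in the reference on none, so only a bound can be given. With the reference set no lower than the dimmest spot called well above background, the means over the arrays differed 3.58-fold. That bound holds for the means in the main setting and is no floor for each mouse. Without background correction the mean log2 ratio was 1.49. The measured log2 ratios were 2.06, 2.23 and 1.36, lowest in mouse 3, the array with the highest background. Their mean of 1.88 is a description, since the probe entered the test through the channel in which it was high. Starting from the scanner's own log ratio raised this mean to 5.15. The log2 ratio of probe 1 minus that of probe 2 was -4.05, -2.97 and -3.59 in mice 1, 2 and 3. A level of one probe cannot be set against that of another, and with the reference of probe 1 at background the difference between the ratios is no measure of isoform shares. The files name a transcript for each probe, and whether probe 1 also binds the membrane-form mRNA was not determined.

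In rank, Kl probe 2 lay at the 99.6th percentile of all probes in CPE, at 99.6, 99.5 and 99.6 in the 3 mice, by the scale of the study's methods in which over 90 is high, 50 to 90 moderate, 10 to 50 low and under 10 very low expression. A percentile given for a probe is that of its mean level and need not be the mean of the 3 mice. In the reference channel the same probe ranked 48.6, 69.4 and 82.8. Probe 1 ranked at the 72.0th percentile in CPE, with 74.9, 78.0 and 46.8 in mice 1, 2 and 3. Probe 2 thus kept its rank among mice, and probe 1 was spread over moderate and low expression.

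**Figure D2:**
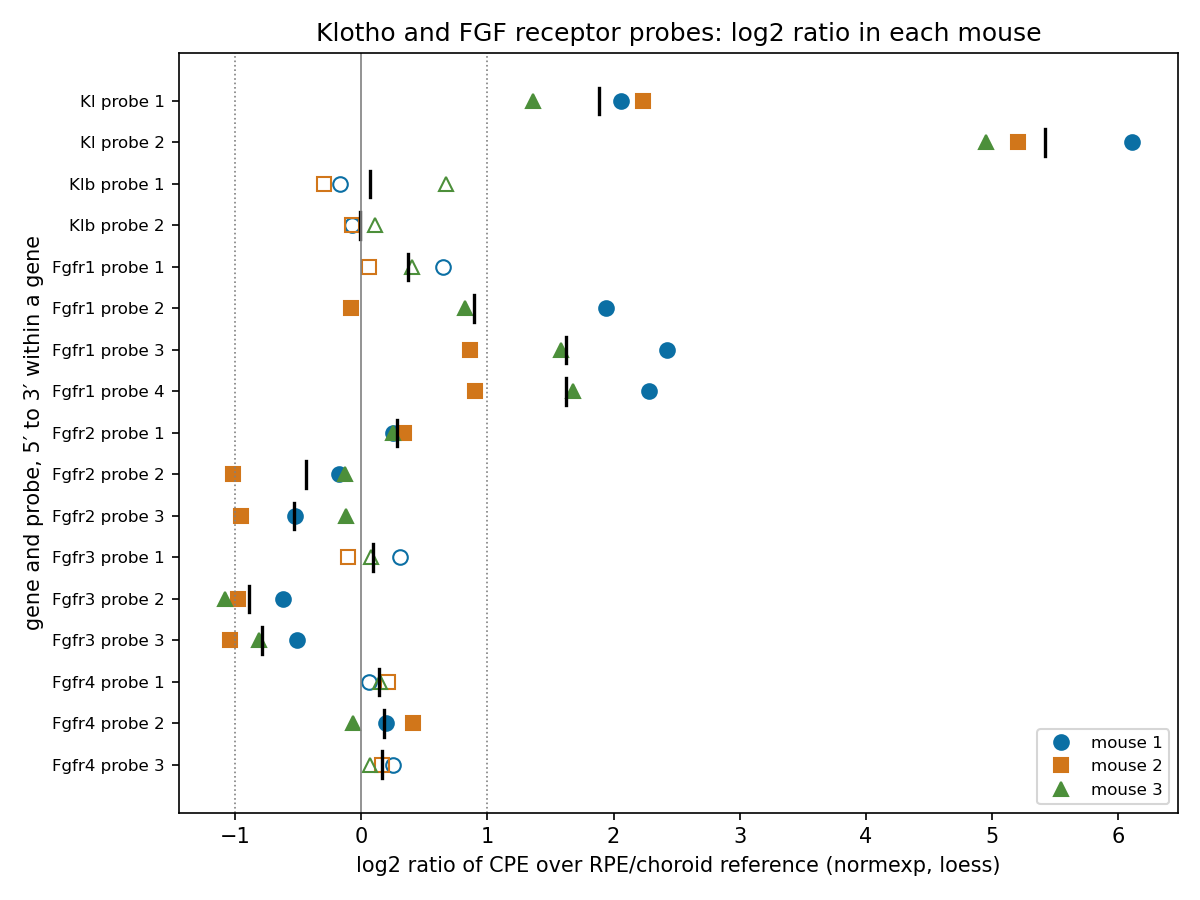
Log2 ratio of CPE over the RPE/choroid reference for each probe in each mouse, with the mean of 3 mice as a black bar, filled symbols for tested probes and dotted lines at a 2-fold difference. Kl probe 2 lies between 4.95 and 6.11 in the 3 mice, Fgfr1 probes 3 and 4 lie above 0 in all of them, and Fgfr3 probes 2 and 3 lie below 0 in all of them.

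Klb was not detected reliably in either tissue. Its probe 1, at chr5:65628875-65628934, was taken from a cDNA clone of small intestine and gave CPE intensities of 94.7, 84.2 and 493 in the 3 mice and 153, 156 and 245 in the reference. Only mouse 3 was called well above background in CPE. The reference was so called on arrays 1 and 2, at 1.41 and 1.49 times the negative controls, and not on array 3. Probe 2, at chr5:65662822-65662881 and annotated to the Klb mRNA, gave 84.7, 79.8 and 346 in CPE and was above background on no array in either channel. Both follow the negative controls of each array. The log2 ratios ranged from -0.29 to 0.67 for probe 1 and from -0.07 to 0.11 for probe 2, with both signs, and neither probe could be tested. In CPE the mean levels ranked at the 26.4th and the 7.97th percentile, low and very low.

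Fgfr1 was the receptor that was higher in CPE. Its probe 4, the brightest of the gene, lies at chr8:27039136-27039195 (plus strand). It gave CPE intensities of 2522, 456 and 2553 in mice 1, 2 and 3, against 316, 280 and 508 in the reference. CPE was brighter on each array, with mouse 2 far below the others. The log2 ratios were 2.28, 0.90 and 1.68 (mean 1.62, SE 0.25, limma adjusted p = 0.0022). Their SD, 0.69, was larger than that of 94.8% of the tested probes, so this SE and p rest in part on the smaller spread of other probes. Probe 3, which overlaps probe 4 by 39 bases and so is no independent measure, gave 2.42, 0.86 and 1.58, with a mean of 1.62 (adjusted p = 0.00313). Without mouse 2 the mean of probe 4 was 1.98, and without mouse 1 it was 1.29, each past the threshold. Taken as the mean over the tested Fgfr1 probes, the log2 ratio was 1.38 and was still called higher. Tested against a 2-fold change in place of 0, probes 3 and 4 no longer passed, with adjusted p of 0.321 and 0.257.

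Upstream, the Fgfr1 ratios were smaller. Probe 2, at chr8:27035238-27035297, gave 1.94, -0.08 and 0.82 (mean 0.89, adjusted p = 0.0701), and the SD of 1.01 exceeded that of 99.0% of the tested probes. In mouse 2 this spot was not above background in CPE. It passed the threshold without mouse 2, at 1.38 with an adjusted p of 0.00142, and with array weights, at 1.19 with an adjusted p of 0.0202. Probe 1, at chr8:26997829-26997888, was not tested and gave 0.65, 0.06 and 0.41. Its spots were 1.21 to 2.69 times the negative controls in CPE and 1.30 to 1.78 times in the reference. So near background, the size of its ratio cannot be set against that of the 3′ probes. Mouse 2 had the lowest ratio at all 4 probes. It was scanned on another day than mice 1 and 3 and had the fewest probes above background in CPE. Of the lists for other cells, those of endothelium and oligodendrocytes had a positive median. The endothelial markers had median log2 ratios of 0.70, 0.51 and 0.26 in mice 1, 2 and 3, and all 8 were well above background in CPE. For the oligodendrocyte markers the medians were 0.93, 0.78 and 0.15. The stromal list had a negative median of -1.80, though its markers ranked from 84.4 to 98.3 in CPE. The part of any of these cells in the Fgfr1 ratio was not tested.

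In rank, Fgfr1 probe 4 lay at the 88.4th percentile in CPE, just under the limit of high expression, with 91.6, 79.2 and 91.2 in the 3 mice. Without mouse 2 it ranked 91.6 and would be called high. The CPE level itself varied more than that of the reference, with an SD of 1.04 on the log2 scale against 0.25.

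Fgfr2 had the brightest receptor probe by rank. The 3′ probe, at chr7:129954346-129954405 (minus strand), gave 3860, 1432 and 3247 in CPE and 2549, 1980 and 1881 in the reference. It ranked at the 93.2nd percentile in CPE, high expression in each of the 3 mice (94.0, 90.2 and 94.2), and at the 95.1st in the reference. Ranked among only the probes well above background in CPE, it fell to 84.8, moderate. The log2 ratios were -0.53, -0.95 and -0.12 with a mean of -0.53 (SE 0.19, limma adjusted p = 0.0625), and the sign turned to 0.15 when arrays were centred on their median in place of loess. Probe 2, 743 bases upstream, gave -0.17, -1.02 and -0.13 (adjusted p = 0.136) and ranked at 74.7 in CPE, moderate. Probe 1, at chr7:130033600-130033659, near the 5′ end, gave 0.25, 0.34 and 0.25, with an adjusted p of 0.173 and a moderate rank of 52.2 in CPE. In each mouse it lay above both 3′ probes, by 0.37 to 1.36. Probe 1 names transcript variant 1 alone, the other probes name another variant too, and probe 1 was not above background in the CPE of mouse 2. Its spots were only 1.45 to 2.17 times the negative controls in CPE and 1.47 to 1.62 times in the reference. The difference from the 3′ probes is therefore no measure of variants or position.

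Fgfr3 was lower in CPE in all 3 mice at the probes of its 3′ part, without reaching a 2-fold difference. Probe 3, the brightest, lies at chr5:34053130-34053189 (plus strand) and gave 1145, 518 and 1097 in CPE against 898, 920 and 918 in the reference. The log2 ratios were -0.51, -1.04 and -0.81 (mean -0.79, SE 0.17, limma adjusted p = 0.00859). Probe 2, which shares 37 bases with it, gave -0.62, -0.97 and -1.08 (mean -0.89, adjusted p = 0.00455), and it passed the 2-fold minimum without mouse 1, at -1.03, and with the scanner's log ratio, at -1.04. With median centring both ratios kept their sign and lost the p, at -0.24 (adjusted p = 0.634) for probe 3 and -0.50 (adjusted p = 0.293) for probe 2. Probe 1, 505 bases upstream of probe 2, was not tested and gave 0.31, -0.10 and 0.08. It lay near background, at 1.10 to 3.00 times the negative controls in CPE and 1.33 to 2.31 times in the reference. In rank, Fgfr3 probe 3 was moderate, at 82.8, 79.3 and 79.0 in the 3 mice. Fgfr3 is also a known receptor of astrocytes. Of the astrocyte markers 1 of 6 was higher and 2 were lower in CPE, and their part was not tested.

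Fgfr4 was at the limit of detection. All 3 probes, between chr13:55177486 and chr13:55178297 (plus strand), were above background in the CPE of mouse 3, and only probe 2 also in another mouse. Probe 2 gave 141, 110 and 457 in CPE and 163, 149 and 283 in the reference. Its log2 ratios of 0.20, 0.41 and -0.06 had both signs, with a mean of 0.18 (SE 0.16, limma adjusted p = 0.414) that turned to -0.01 with median centring. The untested probes 1 and 3 gave 0.06 to 0.21 and 0.07 to 0.25. The ranks in CPE lay between the percentiles 11 and 51.1 over the 3 probes.

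**Figure D3:**
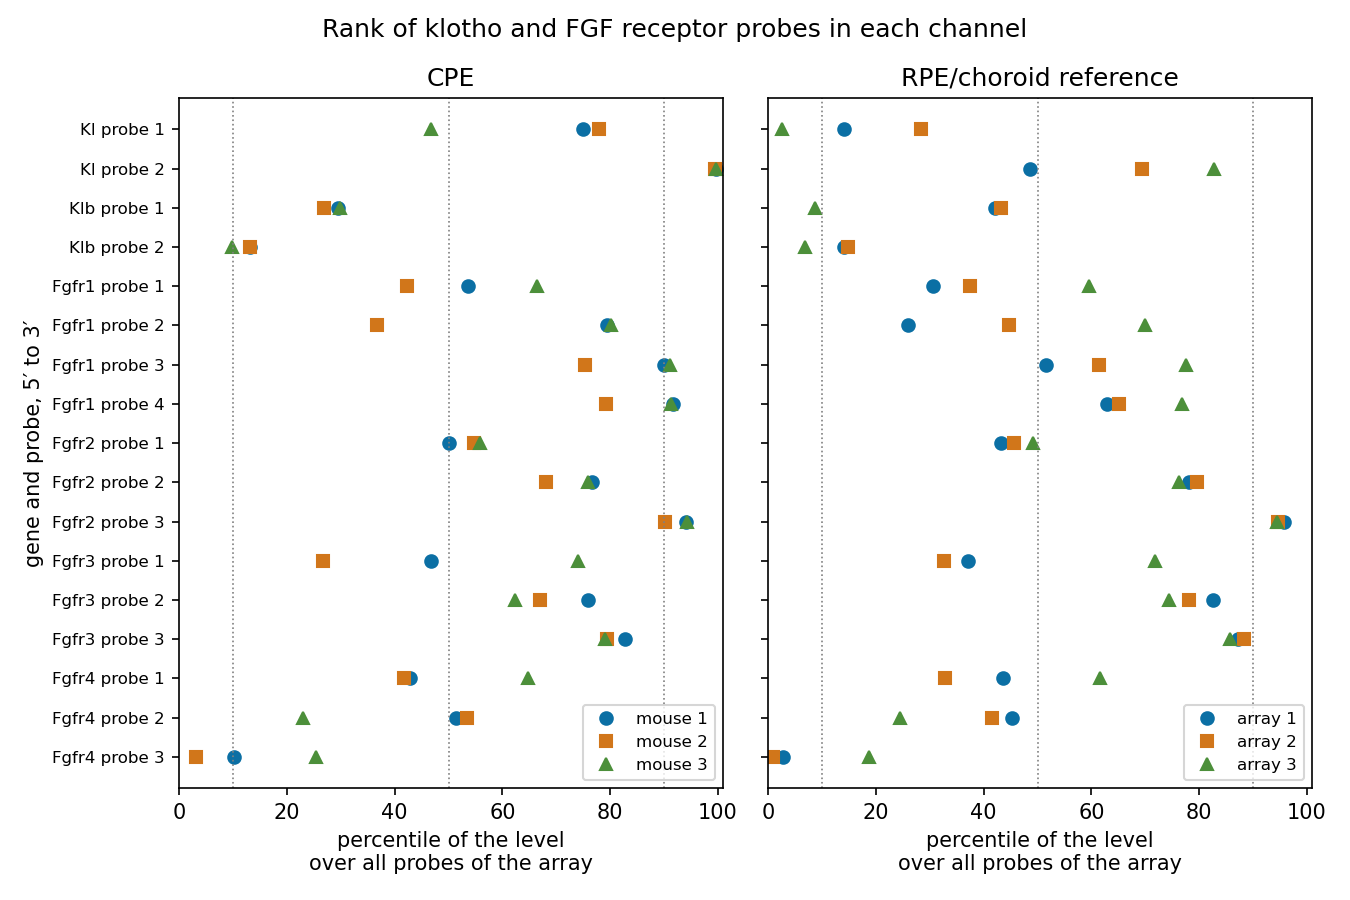
Percentile of each probe's log2 intensity among all probes of the array, for the CPE of 3 mice (left) and the reference (right), with dotted lines at 10, 50 and 90, the limits of very low, low, moderate and high expression. Kl probe 2 is at 99.5 to 99.6 in CPE, Fgfr2 probe 3 is above 90 in both channels, and Fgfr1 probe 4 is above 90 in mice 1 and 3 only.

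Each gene was represented by its tested probe that was brightest over both channels, and the untested Klb by its brightest probe. By rank in CPE, these ran Kl at 99.6, Fgfr2 at 93.2, Fgfr1 at 88.4, Fgfr3 at 81.3, Fgfr4 at 43.1 and Klb at 26.4. Over the 3 mice the ranks of Fgfr1 overlapped those of Fgfr2, which was at 90.2 in mouse 2. They overlapped those of Fgfr3 because Fgfr1 ranked 79.2 in mouse 2. Within each mouse Fgfr2 ranked above Fgfr1, whereas Fgfr1 ranked above Fgfr3 in mice 1 and 3 only. The ranks of Fgfr4 probe 2 overlapped those of Klb probe 1, whereas Kl lay apart from Fgfr2 and Fgfr3 from Fgfr4. Fgfr4 probe 1, brighter than probe 2 but untested, ranked at 51.1 in CPE, which is moderate. With 42.9, 41.8 and 64.8 in the 3 mice, it lay above both Klb probes in each mouse. Probes differ in how well they bind their target, so this order is one of spots and not of transcript numbers. Over all 17 probes 2 were high, 11 moderate, 3 low and 1 very low. The share of all probes that is high is 10% by definition. The median SD of the log2 ratio over mice was 0.46 for the 11 tested member probes and 0.26 for all tested probes, and 0.29 when the 6 untested member probes were included.

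The genes whose ratios were most like those of Kl probe 2 were found among 13335 genes measured in both channels, by the root mean square difference of the 3 log2 ratios. The nearest was Htr2c, a serotonin receptor gene and known CPE marker, at 0.65, with log2 ratios of 5.53, 5.64 and 4.09. Steap1 at 0.80, Cul4b at 1.02, Dynlrb2 at 1.04 and 1110017D15Rik at 1.06 followed. Since Kl had the highest ratio, all of them had a lower mean. Nearest to Fgfr1 probe 4 were Rgs3 at 0.14, with 2.32, 0.85 and 1.92 in the 3 mice, Tenm4 at 0.15 and Pygb at 0.18. That all were lowest in mouse 2 follows from how they were chosen.

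The wider pathway was read from 9 lists with 117 genes, of which 115 were on the array and 94 could be tested, each by its brightest tested probe. Of these, 10 (10.6%) were higher and 15 (16%) lower in CPE, with a median log2 ratio of -0.02. Over all 18176 genes tested, 7.96% were higher and 11% lower, with a median of -0.04. Among the list genes called lower, Fgf13, Fos and Galnt3 passed the filter through the reference channel alone, where they were brighter, so their calls add no support. Tested against a 2-fold change in place of 0, 3 genes were higher, Hs6st2, Sulf1 and Gpc4, and 7 lower, Gpc3, Dusp4, Dusp6, Fos, Ccnd1, Egr1 and Galnt3. With median centring, the pathway had 22 genes higher and 12 lower. That setting moved the median ratio of all tested probes from -0.04 to 0.09 and the share of calls that were higher from 41.1% to 67.0%.

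Among the ligands, the endocrine FGFs that act through klotho proteins were not reliably detected. Fgf15, Fgf21 and Fgf23 were each well above background on 1 array in CPE and ranked at the 11.7th, 11.9th and 25.8th percentile, and none could be tested. Of 14 paracrine FGFs, 6 could be tested. Fgf18, a paracrine ligand, was higher in CPE, with log2 ratios of 2.18, 1.55 and 1.31 (mean 1.68, SE 0.20, adjusted p = 0.000607) and a rank of 89.8. Fgf1 was lower, at -1.87, -1.68 and -0.43 (adjusted p = 0.00773), though its other probe was not called. Fgf9 was lower too, at -1.34, -1.26 and -1.02 (adjusted p = 0.000918), and with median centring it missed the 2-fold minimum at -0.95. Fgf2 could not be tested and ranked at 55.7. Of the 4 FGF homologous factors, intracellular proteins that do not act through these receptors, Fgf12 (-1.71) and Fgf13 (-1.42) were lower, each at 1 of its tested probes, of which Fgf12 had 2 and Fgf13 had 3. Fgf13 passed the filter through the reference channel alone, where it was brighter, so its call adds no support. Without mouse 3 that call was lost, at -0.98.

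Co-receptors and heparan sulfate set how FGF ligands reach their receptors. Of 15 tested co-receptor and binding genes 2 were higher and 3 lower. Gpc4, a glypican that carries heparan sulfate, was higher with 1.83, 1.74 and 1.51 (mean 1.70, adjusted p = 0.000184) at both of its probes. Fgfrl1, a receptor without a kinase domain, was higher with 1.31, 1.41 and 0.76 (mean 1.16, adjusted p = 0.00217). Gpc3, another glypican, was lower with -3.27, -2.82 and -2.50 (adjusted p = 4.14e-05), followed by Fgfbp1, a carrier of FGFs, at -1.32 and the syndecan Sdc1 at -1.10, whose call was lost with median centring (-0.64). Lctl, a klotho-family gene, was not above background in CPE on any array. By the same kind of bound on the means it was 1.56-fold higher in the reference (limma adjusted p = 0.0205). With the scanner's log ratio it was called lower, at -2.42. Since Lctl passed the filter through the reference channel alone, where it was brighter, neither this call nor the p adds support. Gpc1, Sdc2, Sdc4 and Flrt2 ranked above 90 in CPE and were not called. With median centring Sdc2 (1.19), Sdc4 (1.36) and Flrt2 (1.52) were called higher, and Flrt2 also with the scanner's log ratio (1.08), with array weights (1.04) and without mouse 2 (1.13).

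Among 12 enzymes that build or trim heparan sulfate, 2 were higher in CPE and 0 lower, with a list median of 0.17. Hs6st2, a sulfotransferase that adds sulfate to heparan sulfate, gave 3.95, 3.79 and 3.78 (mean 3.84, SE 0.15, adjusted p = 6.71e-06) and ranked at 98.0 in CPE. Sulf1, a sulfatase that removes such sulfates, gave 2.49, 2.25 and 2.36 (mean 2.37, SE 0.15, adjusted p = 3.84e-05) and ranked at 99.8. Both ratios varied little between mice. Ndst1, an enzyme that starts sulfation, ranked at 95.7 without a call, and was called higher with median centring, at 1.05. Of the proteases known to shed klotho, none was called: Adam10 had a ratio of -0.30, Adam17 of 0.39 and Bace1 of -0.59, the last with an adjusted p of 0.017 and under 2-fold.

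Downstream, 2 of 21 adaptors and kinases were higher and 1 lower, with a list median of 0.23. Hras was higher at 1.41 (adjusted p = 0.000459) and Map2k2 at 1.03 (adjusted p = 0.00164), and Map2k2 dropped under 2-fold without mouse 1, at 0.98. Map2k1, the other MAP kinase kinase, was lower at -1.43 (adjusted p = 0.000737), and lost its call with median centring at -0.83. Ptpn11, Mapk3, Sos2, Grb2 and Akt1 were among those that ranked above 90 in CPE and were not called. With median centring the list had 7 higher and 0 lower, among them Mapk3 (1.26), Akt1 (1.21) and Grb2 (1.14). Feedback inhibitors and targets of FGF signalling went in both directions, with 3 higher and 5 lower of 15 tested. Spry1, Spred1 and Spred2, inhibitors of Ras and MAP kinase signalling, were higher at 1.10, 1.22 and 1.29. Spred1 was called at 1 of 3 tested probes and Spred2 at 1 of 2. The phosphatase genes Dusp4 and Dusp6 were lower at -3.21 and -2.95, with Fos at -1.98, Ccnd1 at -1.97 and Egr1 at -1.89. Fos passed the filter through the reference channel alone, where it was brighter, so its call adds no support. Dusp6 still ranked at 90.2 in CPE, against 98.9 in the reference. Spry2 (-0.09), Etv4 (0.31) and Etv5 (0.08) were not called, and Spry4 could not be tested. The signs of Spry2 and Etv5 turned with median centring.

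**Figure D4:**
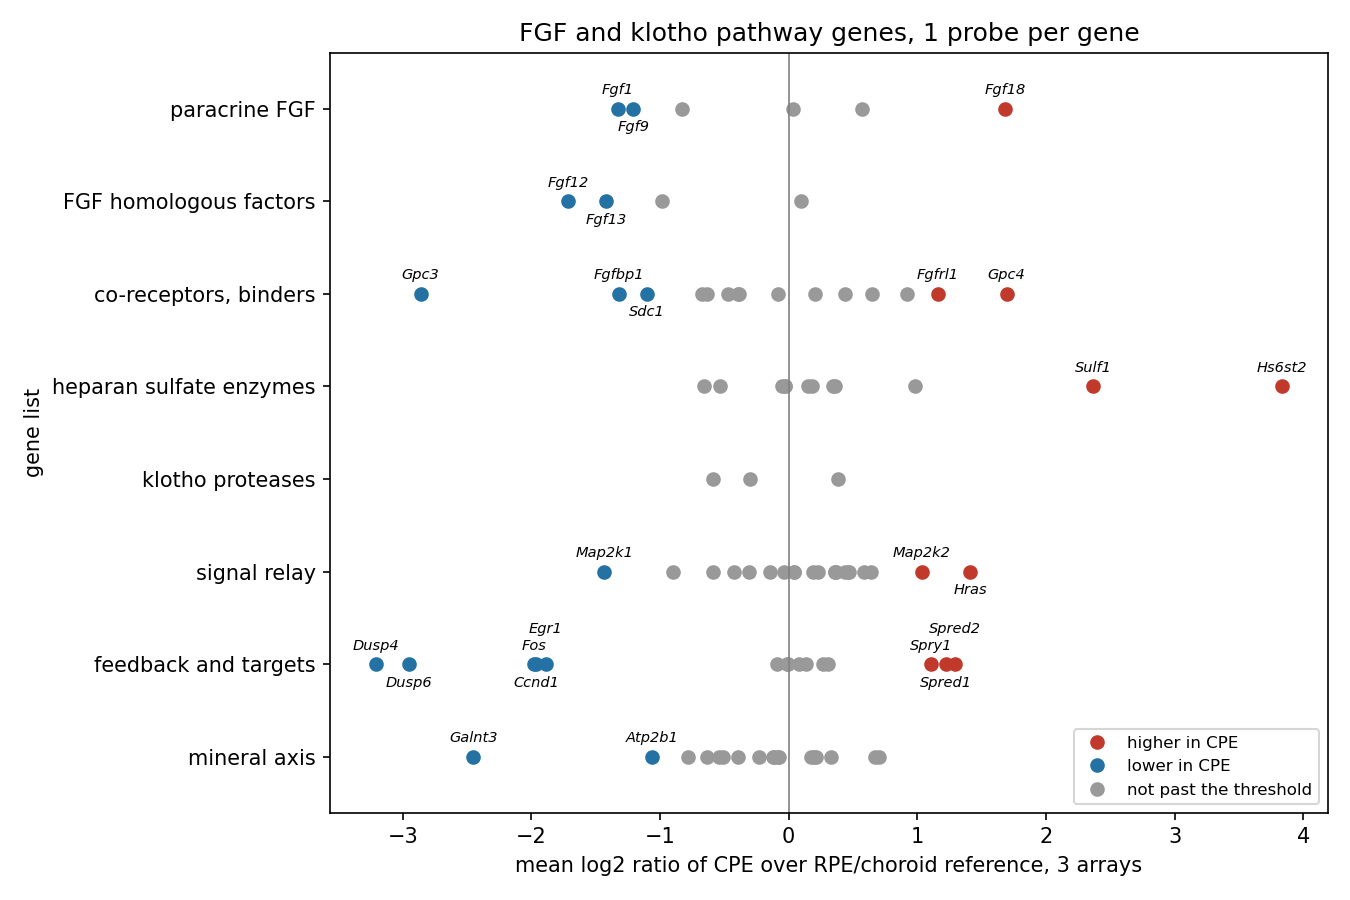
Mean log2 ratio of CPE over the reference for each tested gene of the pathway lists, 1 probe per gene over 3 arrays, with genes higher in CPE in red, lower in blue and the rest in grey. Hs6st2 at 3.84 and Sulf1 at 2.37 are the highest, and Dusp4 at -3.21, Dusp6 at -2.95 and Gpc3 at -2.86 the lowest.

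The genes of vitamin D, phosphate and calcium handling, the processes that klotho and Fgf23 control in the kidney, had 0 of 18 tested genes higher and 2 lower, with a median of -0.12. Galnt3, the enzyme that glycosylates Fgf23, gave -2.87, -2.30 and -2.19 (mean -2.45) and ranked at 11.9 in CPE, where it was above background on 1 array. It passed the filter through the reference channel alone, where it was brighter, so its call adds no support and these ratios are a description. Atp2b1, a calcium pump, was lower at -1.06 at 1 of 4 tested probes, and missed the threshold without mouse 1, at -0.98, and with median centring, at -0.34. Vdr (0.21) and Cyp27b1 (-0.07) were not called, and Cyp24a1 and Trpv5 could not be tested. The phosphate transporter genes Slc20a1 (-0.39) and Slc20a2 (-0.51) were not called, and with median centring their signs turned. Xpr1, a phosphate exporter, and Slc9a3r1, a scaffold protein, ranked at 97.4 and 91.2 in CPE without a call. With median centring both were called higher, Xpr1 at 1.42 and Slc9a3r1 at 1.29, which made 2 genes of the list higher and 1 lower.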

How the data were processed

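RNA from the laser-dissected CPE of 3 mice was hybridised against a common reference on 2-colour arrays with probes of 60 bases. The authors deposited, for each array, the spot intensity values of both channels written by Agilent Feature Extraction 9.5.3.1, together with the scanner's log10 ratio of red over green. The authors also deposited a table of log2 levels, which tracked the red channel (Spearman's rho 0.993 to 0.996) and was used only as an alternative for percentiles. Per the study's methods it was Aquantile-normalized. Its medians were 6.99, 6.93 and 6.90, and its centring is not given in the sources used here. The submitters' processing notes name R 2.14.0 and limma.

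Ratios were computed with limma 3.58.1 in R 4.3.3. Mean and background intensities were corrected by normexp (offset 50) and normalized by loess within each array. Outlier and control spots did not enter, and repeated spots were averaged per probe. The mean log2 ratio was tested against 0 by lmFit and eBayes, with Benjamini-Hochberg adjustment over 25841 probes. A call needed an adjusted p below 0.05 and a 2-fold difference. The code was tested on simulated data. Percentiles used log2 mean red intensities without background correction, Aquantile-normalized and ranked over all probes. The number of arrays, 3, limits the precision.

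Members and lists were chosen with earlier results of these data known. The named genes were all members, up to 4 called genes in each direction per list, a fixed set of ligands, feedback and mineral genes, list genes of high expression and the genes nearest to Kl and Fgfr1. Some list genes are not reported here by name. Feature coordinates are those of the files (mm8), and promoters those of RefSeq GRCm38.p6.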

Additional observations from a re-analysis of the deposited data

How the results depend on the processing

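The Kl and Fgfr1 ratios kept their direction under every alternative run, and no named call reversed. Tested against a 2-fold change, 2 probes (both of Kl) were higher in place of 4, and of these only Kl probe 2 was well above background in both channels. In that limma test the Fgfr1 ratio of 1.62 had an adjusted p of 0.257, and the pathway lists had 3 genes higher and 7 lower. With median centring 22 pathway genes were higher, and the median SD of the 17 ratios was 0.57. With the scanner's log ratio 1 probe, of Fgfr3, was lower, and leaving out each mouse in turn gave 0 to 1 lower, with the 1 arising without mouse 1. Ranked over probes well above background in CPE, Kl was at the 99.1st percentile, Fgfr2 at 84.8, Fgfr1 at 74.1 and Fgfr3 at 58.4, and the deposited table put Kl at 99.7. The percentile of the dim Klb probe was 28.1 with normexp, 29.4 with the processed red signal, 29.5 after loess, and 26.2 to 28.0 on leaving out each mouse in turn. Of the values recomputed for these counts, ratios and percentiles, another 123 kept their call or moved by less than the spread between mice or 1.5 times. Among single probes, pathway genes and list counts, 1165 recomputed values did so, 29 gained a call, 24 lost one and 25 moved further.

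No paired analysis was possible because the arrays form 1 group, and no other group shares their replicate numbers. Dim probes limit what is known of Klb, Fgfr4 and the endocrine FGFs: with spots at background in CPE, a low level cannot be told from none. Neighbouring probes that overlap share sequence. An exact sign test over 3 arrays cannot go below 0.25.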
